A study of Mus musculus with 36 samples.

Results

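A pair of edited mouse embryonic stem cell lines were compared directly after differentiation to neural precursor cells (NPC): a line in which MLL3 and MLL4 are catalytically dead (labelled MLL3/4 dCD, here dCD) and a line in which MLL2 carries a dTAG degron (labelled MLL2 dTAG, here MLL2dTAG). The comparison took 6 of the 36 libraries of the series, 3 of each line, and every gene that passed a filter on low counts, which was 18022 of the 51734 genes in the deposited table. All 6 libraries came from E14 cells, a male mouse embryonic stem cell line, kept with LIF and serum replacement and then given retinoic acid. They were harvested on day 4 and had dTAG-13, a compound that directs a degron-tagged protein to degradation, at 2 µM from day 1. The dCD cells received dTAG-13 as well, and so did the 3 wild-type (WT) NPC libraries whose levels are quoted beside the results, so the compound is not isolated by any of these groups. WT entered neither the contrast nor the estimate of its error. Each genotype is a cell line of its own, so the edits and other differences between the lines cannot be told apart. The labels do not say that replicates were separate cultures, so p-values measure the spread between these libraries, which may be technical.

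MLL2, MLL3 and MLL4 methylate histone H3 at lysine 4 (H3K4), and their genes are Kmt2b, Kmt2c and Kmt2d. MLL2 is best known for placing trimethylation at CpG-rich promoters, many of them promoters of genes that are poised or little used in stem cells. MLL3 and MLL4 are best known for monomethylation at enhancers, and much of their role in gene activation is held to be independent of that catalytic activity. Retinoic acid leads stem cells to exit pluripotency and to take on a posterior neural identity, with Hox genes switched on in order along their clusters.

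The libraries held 31.5 to 35.1 M counts in dCD, 34.4 to 46.0 M in MLL2dTAG and 30.5 to 36.3 M in WT (M, mega counts). Levels are given as CPM, counts relative to the scaled library total in the usual unit, and 3 counts, used as the floor, correspond to 0.0653 to 0.095 CPM in a single library. Log2 levels of the genes tested correlated at 0.9969 to 0.9977 within a line and at 0.9627 to 0.9636 between the lines, which describes the libraries and is not a test. Marker genes of neural precursors were detected in both lines. Sox1 was at 7.55 ± 0.51 CPM in dCD and 4.32 ± 0.426 CPM in MLL2dTAG (SD, n = 3), Pax6 at 54.3 ± 2.1 and 26.1 ± 0.841 CPM, and Nes at 238 ± 15 and 154 ± 2.13 CPM. Hes5, another neural precursor marker, was under 1 CPM in both. Endoderm markers were present beside the neural ones in both lines. In bulk RNA, fewer cells of a type and less RNA per cell cannot be told apart.

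Most of the genes tested differed between the lines. The edgeR quasi-likelihood F test called 11177 genes at a Benjamini-Hochberg adjusted p under 0.05, which is 62% of those tested. Of these, 5621 genes were higher in dCD (31.2% of those tested) and 5556 were higher in MLL2dTAG (30.8%), and the median log2 difference over all genes was -0.0031. The median size of a called difference was 0.48 on the log2 scale. Counts within a gene list are to be read against these shares of all genes. At a difference of at least 2-fold the sides were unequal, with 2306 genes higher in dCD (12.8%) and 1070 higher in MLL2dTAG (5.94%). At 8-fold or more there were 396 and 164 genes. The even split of small differences depends on the scaling. With offsets for each gene's GC content and length, 34.8% of the called genes were higher in dCD and 65.2% in MLL2dTAG, against 50.3% and 49.7% without them, and the median over all genes moved to -0.14. These offsets also re-centred each library on its mean log level. A shift in scale and an effect of GC content or length therefore cannot be told apart under them, here or in the results below.

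**Figure D1:**
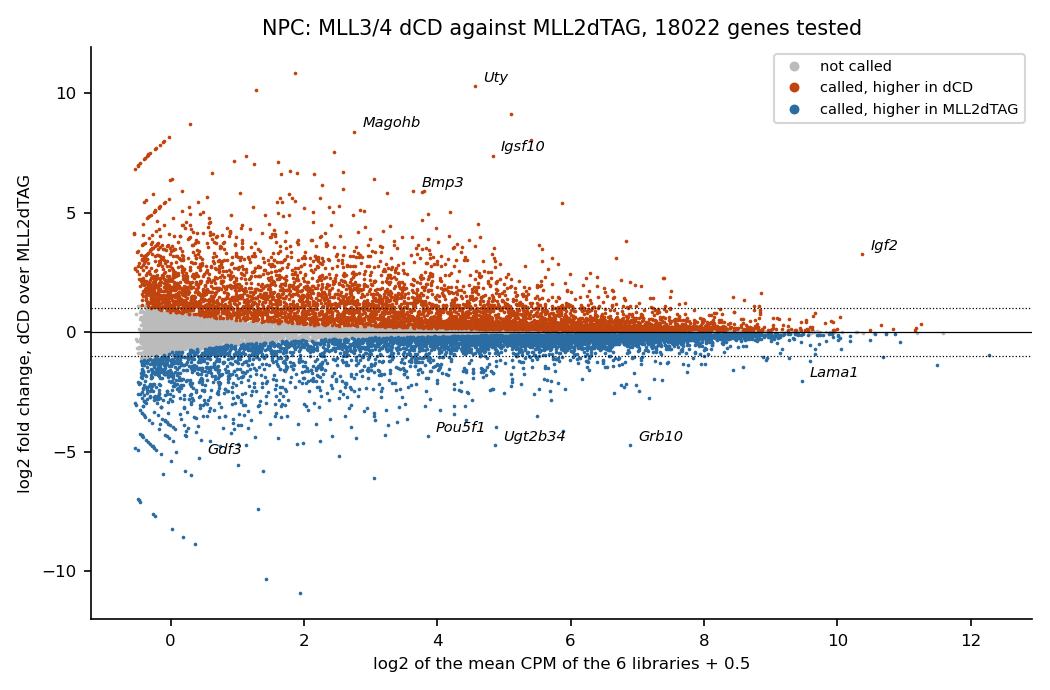
Each point is 1 of the 18022 genes tested, with the log2 of its mean CPM over the 6 libraries plus 0.5 on the x axis and the log2 fold change of dCD over MLL2dTAG on the y axis; colours mark genes called at an adjusted p under 0.05 and dotted lines mark 2-fold. More points lie above the upper dotted line (2306 called genes) than below the lower one (1070).

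The targeted genes themselves were transcribed in both lines. Kmt2b, which encodes MLL2, read 185, 173 and 173 CPM in dCD and 202, 188 and 195 CPM in MLL2dTAG, a small difference of -0.14 (log2 dCD over MLL2dTAG, SE 0.034, edgeR adjusted p = 0.000849). Kmt2c, which encodes MLL3, read 166, 175 and 170 CPM in dCD and 333, 296 and 329 CPM in MLL2dTAG. It was thus 1.87-fold higher in MLL2dTAG (log2 -0.90, SE 0.037, edgeR adjusted p = 6.66e-18), while WT stood at 179 ± 3.81 CPM, near dCD. Kmt2d, which encodes MLL4, gave 277, 247 and 248 CPM in dCD against 267, 251 and 266 CPM in MLL2dTAG, and the libraries overlapped (log2 -0.02, SE 0.037, edgeR adjusted p = 0.634). It was called higher in MLL2dTAG without dCD replicate 1 (log2 -0.078, edgeR adjusted p = 0.0401) and with offsets for GC and length (-0.25, edgeR adjusted p = 2.59e-09). Neither edit is aimed at the transcript, since the degron removes protein and the catalytic mutation spares the mRNA, so these levels do not check the labels. Of all genes, 31.2% were called higher in dCD and 30.8% in MLL2dTAG. Of 18 tested genes of the H3K4 methyltransferase complexes, 1 was called higher in dCD and 10 were called higher in MLL2dTAG, with a median of -0.11. Apart from Kmt2c, the largest of these differences was that of Kdm6a, the H3K27 demethylase of the MLL3/4 complex, at -0.40 (94.99 ± 3.52 CPM in dCD, 126 ± 2.07 in MLL2dTAG).

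The genes that differed most, when ranked among genes averaging 10 CPM or above, included several that were nearly silent in MLL2dTAG. Of the 12 highest genes, 3 lie on the Y chromosome. Uty, a Y-linked relative of Kdm6a, read 45.0, 47.1 and 46.4 CPM in dCD and 0.059, 0 and 0.0516 CPM in MLL2dTAG, where 4 counts were found in all. WT lay at 49.6 ± 1.01 CPM, beside dCD. Eif2s3y, a translation initiation factor subunit, stood at 68.1 ± 1.87 CPM in dCD and 0.117 ± 0.0138 CPM in MLL2dTAG. Ddx3y, an RNA helicase, stood at 83.7 ± 1.83 and 0.309 ± 0.0755 CPM. Kdm5d, a Y-linked H3K4 demethylase, was at 9.89 ± 0.874 CPM in dCD and at 6 counts in all of MLL2dTAG. Zfy1 had 51 counts in dCD and none in MLL2dTAG, which makes it at least 20.2-fold higher in dCD against a floor of 3 counts over the group. All 7 tested genes assigned to the Y chromosome were called higher in dCD, with a median log2 difference of 8.05. No autosome stood apart in this way: autosomal medians ran from -0.05 on chromosome 5 to 0.09 on chromosome 18, and that of the X chromosome was 0.085.

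**Figure D2:**
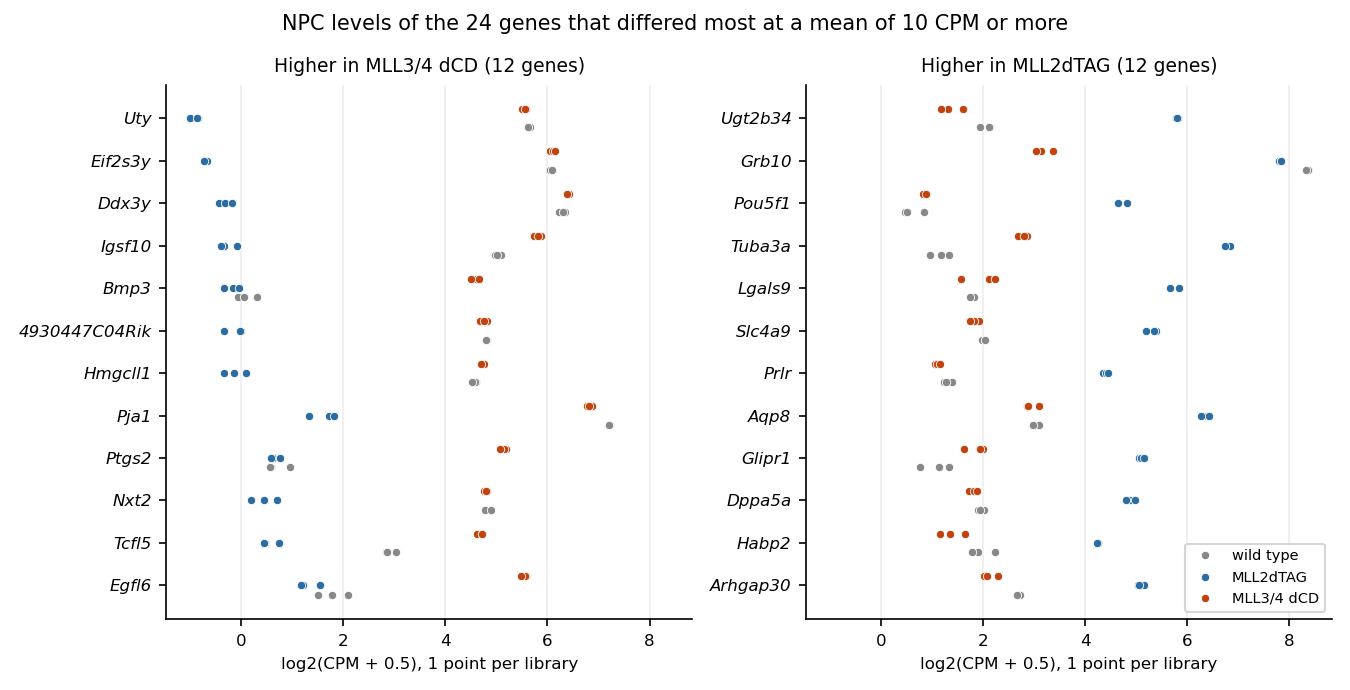
Points show log2(CPM + 0.5) in each library for 12 called genes on either side with the most extreme log2 difference, all with non-overlapping lines and an average level of 10 CPM or above; colours mark dCD, MLL2dTAG and WT. In the left panel WT lies beside dCD for Uty, Eif2s3y, Ddx3y, 4930447C04Rik, Hmgcll1, Nxt2 and Pja1 and beside MLL2dTAG for Bmp3 and Ptgs2, and in the right panel WT lies beside dCD except for Grb10.

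Other genes near silence in MLL2dTAG lie on autosomes or the X chromosome. Magohb, which encodes a core protein of the exon junction complex, read 12.76, 12.57 and 12.03 CPM in dCD and 0, 0.0436 and 0.0516 CPM in MLL2dTAG, with 1245 and 4 counts in all and 11.9 ± 1.24 CPM in WT. Its near-identical paralog Magoh was at 81.5 ± 2.44 and 84.8 ± 1.93 CPM and was not called (log2 -0.06, SE 0.036, edgeR adjusted p = 0.174). How the counting split reads between the paralogs is not given in the sources used here, so the level of either is uncertain. Igsf10, an immunoglobulin superfamily gene, read 52.8, 57.9 and 55.9 CPM in dCD and 0.295, 0.261 and 0.438 CPM in MLL2dTAG. That is a log2 difference of 7.38 (SE 0.112, edgeR adjusted p = 3.69e-27), with WT at 32.1 ± 1.4 CPM, between the lines but on the side of dCD. Pja1, an X-linked ubiquitin ligase, read 117, 109 and 112 CPM in dCD, 2.00, 2.81 and 3.04 CPM in MLL2dTAG and 147 ± 1.39 CPM in WT (log2 5.41, SE 0.072, edgeR adjusted p = 2.56e-28). Hmgcll1, a lyase of ketone body synthesis, stood at 26.0 ± 0.415 and 0.425 ± 0.136 CPM, 4930447C04Rik at 26.5 ± 1.39 and 0.429 ± 0.116 CPM, and Nxt2, an RNA export factor, at 27.2 ± 0.714 and 0.885 ± 0.243 CPM in dCD and MLL2dTAG. In each of these autosomal and X-linked genes MLL2dTAG was the low group; WT was nearest to dCD in Magohb, Hmgcll1, 4930447C04Rik and Nxt2.

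A further group stood apart in dCD instead. Bmp3, a BMP family ligand known to oppose other BMPs, read 23.9, 24.7 and 22.2 CPM in dCD, 0.295, 0.392 and 0.464 CPM in MLL2dTAG and 0.58 ± 0.148 CPM in WT (log2 5.92, SE 0.134, edgeR adjusted p = 1.83e-23). Ptgs2, the inducible cyclooxygenase, read 36.1, 34.9 and 32.9 CPM in dCD, 1.03, 1.00 and 1.19 CPM in MLL2dTAG and 1.13 ± 0.257 CPM in WT (log2 5.01, SE 0.099, edgeR adjusted p = 1.06e-24). Egfl6, a secreted EGF-like protein, was at 46.1 ± 1.75, 1.99 ± 0.371 and 3.01 ± 0.725 CPM in dCD, MLL2dTAG and WT. In these 3 genes MLL2dTAG and WT were both low. Tcfl5, a germ cell bHLH factor, lay at 25.2 ± 1, 0.972 ± 0.163 and 7.0 ± 0.56 CPM in the same order, so that all 3 groups differed in level.

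Among the 12 genes highest in MLL2dTAG, Grb10 had the highest level and was the exception in its relation to WT. Grb10 encodes an imprinted adaptor that restrains insulin and IGF signalling. It read 222, 228 and 229 CPM in MLL2dTAG and 9.88, 8.31 and 7.75 CPM in dCD (log2 -4.71, SE 0.052, edgeR adjusted p = 6.52e-30), and WT stood at 326 ± 5.08 CPM, so dCD was the low group. For the other 11 genes WT was low along with dCD. Ugt2b34, a glucuronosyltransferase, read 56.2, 54.7 and 55.0 CPM in MLL2dTAG, 1.99, 1.75 and 2.55 CPM in dCD and 3.69 ± 0.32 CPM in WT (log2 -4.72, SE 0.085, edgeR adjusted p = 1.25e-25). Aqp8, a water channel, was at 81.8 ± 4.93 CPM in MLL2dTAG against 7.25 ± 0.692 in dCD, and Lgals9, a galectin, at 54.6 ± 4.04 against 3.49 ± 0.904 CPM. Tuba3a, a testis-type alpha-tubulin, was at 111 ± 3.53 against 6.36 ± 0.421 CPM; it shares nearly all its coding sequence with Tuba3b, so its level is uncertain where reads could be split. Slc4a9, an anion exchanger (log2 -3.68), Prlr, the prolactin receptor (-3.64), Glipr1 (-3.43), Habp2 (-3.12) and Arhgap30 (-3.10) completed the group together with the pluripotency genes Pou5f1 and Dppa5a described next.

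For 4 of these genes the RefSeq promoter table (build GRCm38.p6) gives a single window on an autosome whose start site is matched by a GENCODE transcript. The 250 bases before that start are shown for each. They are the 2 highest genes in dCD and the 2 highest in MLL2dTAG that met this on the autosomes searched, which did not include every autosome. Each stretch is printed 5′ to 3′ on the gene's strand with CG dinucleotides in capitals. No library here measures the promoters, and the build used for the counts is not given in the sources used here.
Igsf10 (chr3:59344257-59344506, minus strand): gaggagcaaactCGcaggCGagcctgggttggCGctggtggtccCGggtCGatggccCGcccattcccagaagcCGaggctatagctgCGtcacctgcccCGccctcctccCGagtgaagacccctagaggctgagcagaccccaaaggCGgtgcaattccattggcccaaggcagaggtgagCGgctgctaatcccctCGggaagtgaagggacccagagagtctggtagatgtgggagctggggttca
4930447C04Rik (chr12:72917766-72918015, minus strand): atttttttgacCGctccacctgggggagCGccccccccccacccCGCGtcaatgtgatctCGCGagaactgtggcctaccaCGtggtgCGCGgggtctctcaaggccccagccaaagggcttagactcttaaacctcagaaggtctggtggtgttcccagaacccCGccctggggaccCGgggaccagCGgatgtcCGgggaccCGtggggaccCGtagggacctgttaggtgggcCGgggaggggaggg
Ugt2b34 (chr5:86906938-86907187, minus strand): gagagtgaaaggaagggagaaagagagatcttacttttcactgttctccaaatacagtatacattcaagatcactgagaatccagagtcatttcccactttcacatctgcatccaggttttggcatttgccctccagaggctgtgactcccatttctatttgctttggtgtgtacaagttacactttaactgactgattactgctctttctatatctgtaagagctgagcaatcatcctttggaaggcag
Lgals9 (chr11:78984925-78985174, minus strand): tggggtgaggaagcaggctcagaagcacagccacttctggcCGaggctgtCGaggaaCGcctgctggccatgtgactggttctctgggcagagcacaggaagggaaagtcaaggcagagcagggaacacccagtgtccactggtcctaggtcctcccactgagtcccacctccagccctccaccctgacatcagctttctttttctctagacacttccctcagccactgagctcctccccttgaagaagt
Igsf10 held 13 CG dinucleotides in this stretch, and 31.5% of the 32851 windows in the table held as many or more. The stretch of 4930447C04Rik held 16, matched or passed by 25.4% of the windows. Ugt2b34 held none, as did 7.87% of the windows, and Lgals9 held 3, a number that 37.8% of the windows did not exceed. CG is its own reverse complement, so the count is the same on both strands. A comparison of promoter base composition between the called genes and all genes was void, because only 68.1% of the genes tested had a promoter window. Among genes with a window, 63.3% of those tested were CpG-rich (thresholds 50% GC and 0.6 CpG observed over expected). The share was 46.6% for genes 2-fold higher in dCD and 21.9% for genes 2-fold higher in MLL2dTAG. For all called genes it was 58.8% and 66.4% in the same order. These shares describe only the genes with a window, so no difference between the sides can be read from them. The 4 stretches were picked by size of difference and stand for neither side. A link of promoter CG content to either edit was not tested.

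Pluripotency genes were higher in MLL2dTAG, where 30.8% of all genes were called higher. Of 19 tested, 18 were called higher in MLL2dTAG, with a median log2 difference of -2.36, and the other one, Dppa2, was not called (log2 0.19, edgeR adjusted p = 0.0602). Their summed level was 450 to 462 CPM in MLL2dTAG, 194 to 197 CPM in dCD and 159 to 162 CPM in WT. Pou5f1, which encodes the core factor Oct4, read 24.4, 27.9 and 27.6 CPM in MLL2dTAG and 1.33, 1.27 and 1.34 CPM in dCD (log2 -4.34, SE 0.106, edgeR adjusted p = 8.87e-23), with WT at 1.03 ± 0.232 CPM. Nanog was at 14.3 ± 1.3 CPM in MLL2dTAG and 1.38 ± 0.101 in dCD, and Esrrb at 17.1 ± 1.11 and 1.14 ± 0.334 CPM. Prdm14, Gdf3 and Fgf4 were at or under 1.65 CPM in MLL2dTAG and under 0.2 CPM in dCD. Dppa5a, an RNA-binding protein of stem cells, stood at 29.0 ± 1.88 and 3.0 ± 0.192 CPM. Klf4 differed less, at 55.7 ± 1.46 and 27.4 ± 1.5 CPM (log2 -1.03), and Klf5 differed by -0.20, with overlapping libraries (edgeR adjusted p = 0.0448), and was not called with DESeq2 (adjusted p = 0.0769) or without MLL2dTAG replicate 3 (edgeR adjusted p = 0.417) or dCD replicate 1 (0.152) or 3 (0.119). Dppa3 had no counts in either line.

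Endoderm markers followed the same side, toward which 30.8% of all genes were called. All 20 were tested and called, 15 of them higher in MLL2dTAG and 5 higher in dCD, with a median of -1.55, and their summed level was 6769 to 6790 CPM in MLL2dTAG against 3073 to 3200 CPM in dCD and 3325 to 3511 CPM in WT. Gata4, a factor of primitive and definitive endoderm and of heart mesoderm, read 247, 251 and 253 CPM in MLL2dTAG and 39.4, 35.3 and 36.9 CPM in dCD (log2 -2.75, SE 0.038, edgeR adjusted p = 5.98e-28). Lama1, a laminin chain of the early basement membrane, read 1143, 1142 and 1126 CPM against 256, 271 and 294 CPM (log2 -2.05, SE 0.033, edgeR adjusted p = 1.46e-26). WT lay near dCD for Lama1, at 292 ± 12.2 CPM, and between the lines for Gata4, at 64.0 ± 0.906 CPM. Sox17 (12.7 ± 0.738 and 3.72 ± 0.558 CPM), Sox7 (33.9 ± 2.33 and 6.09 ± 1.18 CPM) and Cubn, the endocytic receptor cubilin of visceral endoderm (178 ± 6.19 and 37.9 ± 1.97 CPM), were also higher in MLL2dTAG, as were the serum protein genes Ttr (-3.29), Afp (-3.07) and Apoa1 (-2.66). The 5 markers higher in dCD were Cldn6 (1.19), Foxa1 (0.86), Epcam (0.82), Krt18 (0.72) and Krt8 (0.13), which other epithelia also express. Markers higher in MLL2dTAG are not all particular to endoderm either, as with Gata4. Krt8 was not called without MLL2dTAG replicate 1 (edgeR adjusted p = 0.0654), with all 18 libraries in the fit (0.173) or with offsets for GC and length (0.713).

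Signalling genes were called in both directions. Of 29 tested genes of BMP, nodal and TGF-beta signalling, 11 were called higher in dCD and 15 in MLL2dTAG (median -0.35), beside 31.2% and 30.8% of all genes. Nodal (2.48 ± 0.67 CPM in MLL2dTAG, 0.786 ± 0.1 in dCD) and its antagonists Lefty1 (log2 -2.30) and Lefty2 (-4.01) were higher in MLL2dTAG, at low levels. Fst, which encodes the activin-binding protein follistatin, read 78.0, 86.8 and 79.3 CPM in MLL2dTAG and 24.4, 26.6 and 27.0 CPM in dCD. On the other side, besides Bmp3, were Inhba (1.45), Tgfb1 (1.70) and the BMP antagonist Grem1 (1.76). Of 20 FGF signalling genes, 5 were called higher in dCD and 12 in MLL2dTAG (median -0.43). Etv5, a transcription factor induced by FGF signalling, read 55.8, 55.3 and 55.7 CPM in MLL2dTAG and 13.6, 13.5 and 12.8 CPM in dCD, with WT at 16.8 ± 0.62 CPM. Fgfr4 (-1.78), Fgf5 (-1.26) and Etv4 (-0.97) shared its direction, and Fgf13, a cytoplasmic FGF homologue, did not (2.79).

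Neural genes were higher in dCD. The shares of all genes were 31.2% called higher in dCD and 30.8% in MLL2dTAG. Of 20 neural progenitor genes, 15 were called higher in dCD and 1, Sox9, in MLL2dTAG, with a median of 0.61. Their summed level was 1665 to 1772 CPM in dCD, 1062 to 1079 CPM in MLL2dTAG and 1021 to 1035 CPM in WT, so it was dCD that stood above the other groups. Pax6, a homeodomain factor of neural progenitors, read 53.1, 56.7 and 53.1 CPM in dCD and 25.6, 25.7 and 27.1 CPM in MLL2dTAG (log2 1.06, SE 0.05, edgeR adjusted p = 1.73e-16). Zic2, a dorsal neural zinc finger factor, read 21.1, 21.4 and 18.4 CPM in dCD and 4.19, 5.34 and 4.59 CPM in MLL2dTAG. Zic5 (1.95), Prom1 (1.90) and Vim, the intermediate filament vimentin (1.10), shared this direction. Among 20 neuronal genes, 16 were called higher in dCD and 1, Onecut2 (-1.11), in MLL2dTAG, with a median of 0.58. Stmn2, a microtubule regulator of growing axons, read 94.8, 102 and 93.4 CPM in dCD, 30.1, 30.2 and 30.4 CPM in MLL2dTAG and 26.2 ± 0.167 CPM in WT. Syt1, a synaptic vesicle calcium sensor (log2 2.43), Gap43, a growth cone protein (1.76), and Tubb3, the neuronal beta-tubulin (0.87), were higher in dCD too. Proneural factors and Notch genes gave 11 called higher in dCD and 2 in MLL2dTAG of 18 tested (median 0.38), with Olig3 (2.34) and the ligand Jag2 (1.59) on one side and Hey1, a Notch target (-1.41), on the other. Of 30 axon guidance genes, 19 were called higher in dCD and 8 in MLL2dTAG (median 0.35). Epha5 (1.79) and Sema5a (1.61) were higher in dCD and Plxna4, a semaphorin receptor, was higher in MLL2dTAG (101 ± 5.69 against 19.3 ± 0.5 CPM).

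**Figure D3:**
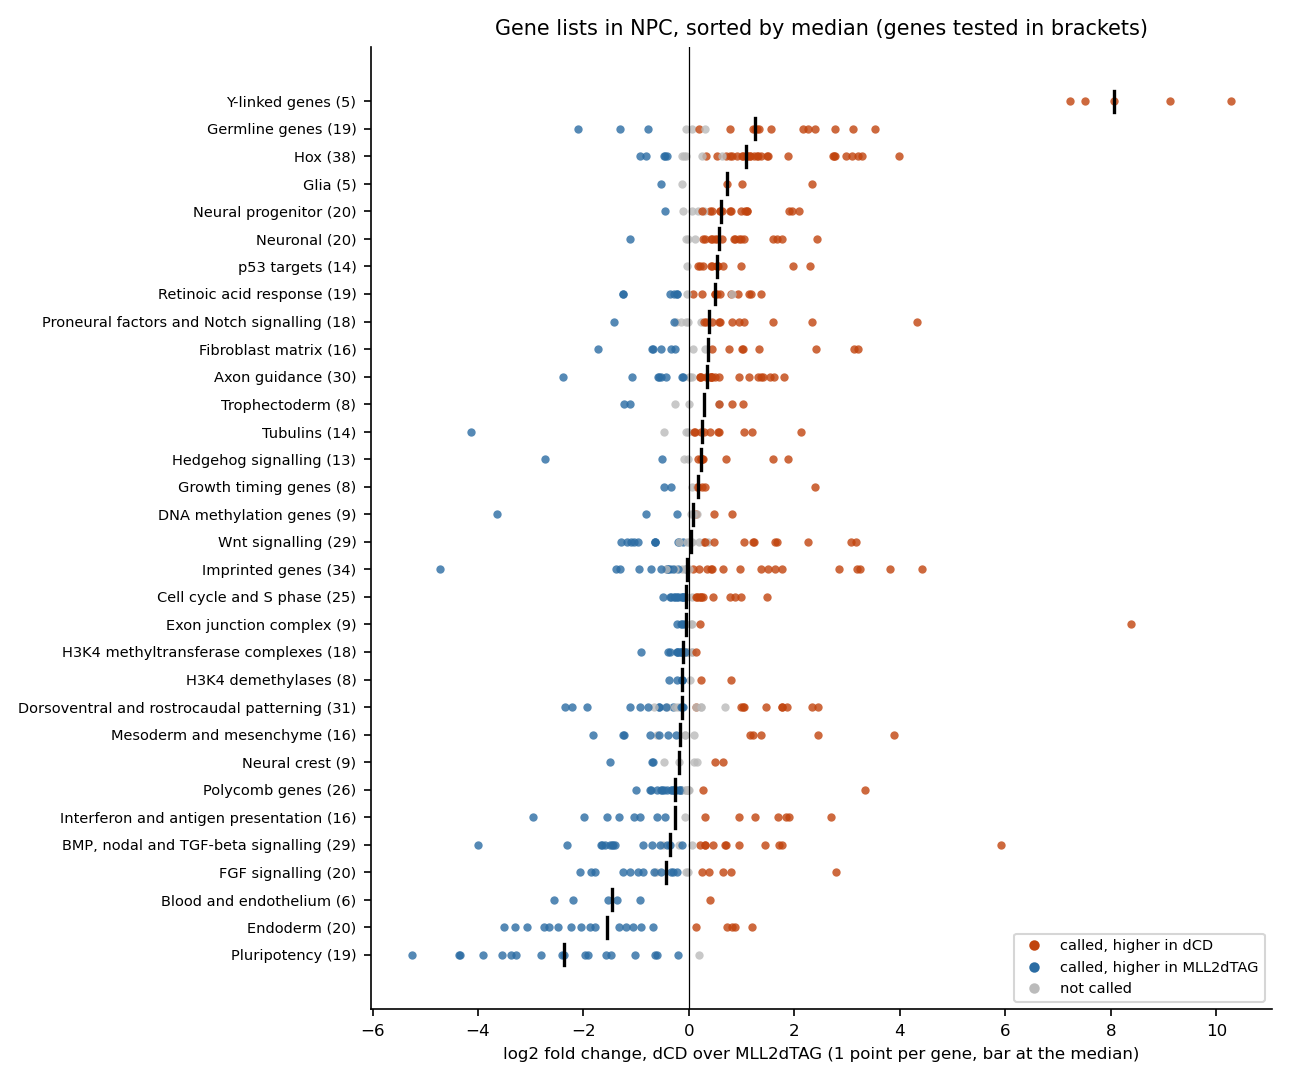
Each point is a tested gene of 1 of 32 gene lists, placed by its log2 fold change of dCD over MLL2dTAG and coloured by its call, and the black bar is the list's median; lists are sorted by median. Pluripotency, endoderm and blood and endothelium lie lowest, with medians of -2.36, -1.55 and -1.45, and Y-linked, germline and Hox genes highest, with medians of 8.05, 1.25 and 1.09.

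Hox genes, which set position along the body axis, were mostly higher in dCD. Of 38 tested, 28 were called higher in dCD and 5 in MLL2dTAG, and the median was 1.09, against 31.2% and 30.8% of all genes. At 2-fold or more 22 were higher in dCD, where 12.8% of all genes were. Of the 8 largest differences, 7 were in paralog groups 9 to 12. Hoxa9 read 52.4, 50.5 and 47.8 CPM in dCD, 5.40, 4.83 and 5.34 CPM in MLL2dTAG and 34.4 ± 2.67 CPM in WT (log2 3.28, SE 0.069, edgeR adjusted p = 3.98e-24). Hoxa10 was at 29.1 ± 2.09 and 3.2 ± 0.502 CPM. Hoxc10 read 19.7, 19.4 and 20.4 CPM in dCD, 1.59, 1.20 and 1.03 CPM in MLL2dTAG and 5.18 ± 0.791 CPM in WT (log2 3.97, SE 0.117, edgeR adjusted p = 5.38e-21). For Hoxa9 and Hoxa10 WT was thus nearer to dCD, and for Hoxc10 it lay between the lines. Genes called higher in MLL2dTAG included Hoxa4 (-0.92), Hoxc5 (-0.82), Hoxb1 (-0.48) and Hoxa5 (-0.42), of anterior groups. Hoxc5 read 150, 148 and 149 CPM in MLL2dTAG and 82.8, 83.4 and 87.1 CPM in dCD, both under the 222 ± 1.56 CPM of WT. Hoxd1, an anterior gene, went the other way, at 10.1 ± 0.117 CPM in dCD and 1.46 ± 0.439 CPM in MLL2dTAG. All Hoxb genes tested from Hoxb2 on were called higher in dCD.

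**Figure D4:**
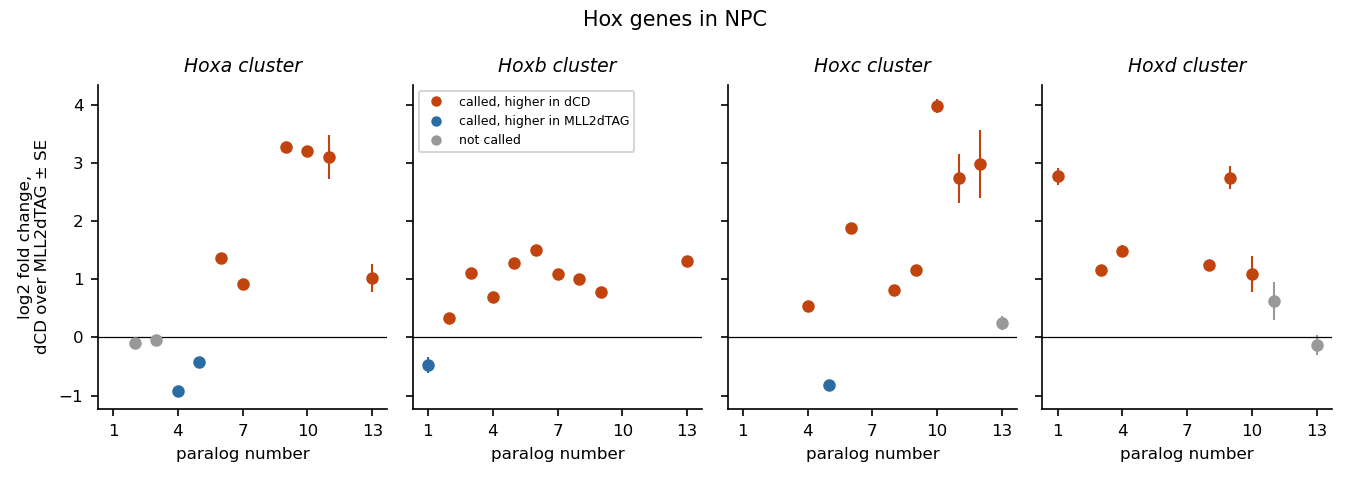
Hox genes reported here are plotted by cluster and paralog number, with the log2 fold change of dCD over MLL2dTAG (± SE) on the y axis and the call as colour. Points over 2.5 are Hoxa9 to Hoxa11, Hoxc10 to Hoxc12, Hoxd1 and Hoxd9, and points called below 0 are Hoxa4, Hoxa5, Hoxb1 and Hoxc5.

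Retinoic acid response genes were called in both directions. Of 19 tested, 11 were called higher in dCD and 6 in MLL2dTAG (median 0.49). Aldh1a2, which makes retinoic acid, was at 51.6 ± 2.03 CPM in dCD and 20.1 ± 0.651 CPM in MLL2dTAG, both under the 128 ± 3.08 CPM of WT. The receptor gene Rarg (log2 1.14) and the retinol carrier Rbp4 (1.18) were also higher in dCD. Cyp26a1, which degrades retinoic acid and is induced by it, read 240, 258 and 247 CPM in MLL2dTAG and 108, 101 and 105 CPM in dCD (log2 -1.25, SE 0.035, edgeR adjusted p = 1.55e-21). Of 31 genes of dorsoventral and rostrocaudal patterning, 10 (32.3%) were called higher in dCD and 13 (41.9%) in MLL2dTAG (median -0.13), beside 31.2% and 30.8% of all genes. At 2-fold or more 8 of them were higher in dCD and 4 in MLL2dTAG, and the differences ran from -2.35 to 2.44. Pax7 (2.44) and Pax3 (1.46) were among those higher in dCD. Foxa2 (-0.93) was higher in MLL2dTAG, by less than 2-fold. Hedgehog genes gave 9 and 2 of 13 (median 0.23). The pathway's target Hhip was at 60.9 ± 1.84 CPM in dCD and 20.2 ± 0.726 CPM in MLL2dTAG, and the ligand Ihh at 2.77 ± 0.568 and 18.5 ± 1.15 CPM. Wnt signalling genes gave 11 on each side of 29, with a median of 0.04 that turned negative with all 18 libraries in the fit (-0.018) and when GC content and length entered as offsets (-0.11). The ligands Wnt10b (3.16), Wnt3 (3.08), Wnt5b (2.25) and Wnt1 (1.66) were higher in dCD, and the secreted antagonists Dkk1 (-1.29) and Sfrp1 (-1.05; 307 ± 2.94 against 634 ± 14.8 CPM) were higher in MLL2dTAG.

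Imprinted genes, expressed from 1 parental allele, had some of the largest differences at high expression in both directions. Of 34 tested, 16 (47.1%) were called higher in dCD and 13 (38.2%) in MLL2dTAG, beside 31.2% and 30.8% of all genes. The median was -0.04 and the range ran from -4.71 for Grb10 to 4.42 for Nap1l5. Igf2, the growth factor gene, read 2492, 2312 and 2386 CPM in dCD, 249, 253 and 253 CPM in MLL2dTAG and 2968 ± 11.2 CPM in WT (log2 3.25, SE 0.027, edgeR adjusted p = 8.5e-33). H19, the maternally expressed RNA that shares its control region with Igf2, went the other way, at 4172 ± 237 CPM in MLL2dTAG and 1600 ± 12.8 CPM in dCD, on either side of the 2731 ± 63.9 CPM of WT. The Peg3 domain divided too. Peg3 read 6853, 6050 and 6686 CPM in MLL2dTAG and 3431, 3384 and 3359 CPM in dCD, and its neighbour Usp29 was at 231 ± 1.51 and 92.9 ± 3.68 CPM. Zim1, of the same domain but expressed from the maternal allele, read 16.1, 14.0 and 15.0 CPM in MLL2dTAG and 211, 217 and 204 CPM in dCD, with WT at 679 ± 6.71 CPM. Both lines were thus under WT for Zim1. Cdkn1c, a cell cycle inhibitor, was at 97.7 ± 3.15 CPM in dCD, 13.5 ± 0.11 CPM in MLL2dTAG and 91.3 ± 1.57 CPM in WT, and Plagl1, a zinc finger gene, at 696 ± 14, 226 ± 9 and 664 ± 13.6 CPM. In Igf2, Cdkn1c and Plagl1 MLL2dTAG stood apart from the other groups, and in Grb10 dCD did.

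Genes listed as p53 targets were mostly higher in dCD. Of 14 tested, 13 were called, each of them higher in dCD, with a median of 0.53, and Trp53 itself was not called (log2 -0.04, edgeR adjusted p = 0.386). Their summed level was 2724 to 2804 CPM in dCD, 1893 to 1913 CPM in MLL2dTAG and 1640 to 1652 CPM in WT. Cdkn1a, the p21 cell cycle inhibitor, read 221, 204 and 208 CPM in dCD and 107, 105 and 107 CPM in MLL2dTAG (log2 0.99, SE 0.034, edgeR adjusted p = 1.64e-19). Perp, a desmosome and apoptosis gene, read 132, 120 and 119 CPM against 24.5, 27.1 and 24.3 CPM, and the death receptor gene Fas was at 9.16 ± 0.513 and 2.38 ± 0.624 CPM. WT lay near MLL2dTAG for all 3 of these genes. Cell cycle and S phase genes gave 11 (44%) called on each side of 25, with a median of -0.05. The shares of all genes were 31.2% for dCD and 30.8% for MLL2dTAG. Ccnd2, a G1 cyclin, had the largest difference of that list, at 511 ± 1.26 CPM in dCD and 183 ± 4.7 CPM in MLL2dTAG.

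Mesenchymal and matrix genes were called in both directions. Beside the counts below stand 31.2% of all genes called higher in dCD and 30.8% in MLL2dTAG. Of 16 tested fibroblast matrix genes, 8 were called higher in dCD and 6 in MLL2dTAG (median 0.37), and their summed levels overlapped, at 3460 to 3651 CPM in dCD and 3423 to 3607 CPM in MLL2dTAG, both over the 2283 to 2326 CPM of WT. Col1a2, a type I collagen chain, read 192, 176 and 181 CPM in dCD, 21.1, 19.4 and 22.9 CPM in MLL2dTAG and 157 ± 1.46 CPM in WT (log2 3.12, SE 0.048, edgeR adjusted p = 4.82e-27). Fbn1, the microfibril protein fibrillin, was at 106 ± 4.53 CPM in dCD and lower in MLL2dTAG (log2 2.41), and Postn, periostin, went the other way, at 13.1 ± 0.74 and 43.3 ± 2.32 CPM. Mesoderm and mesenchyme markers gave 5 and 7 of 16 (median -0.16). Acta2, smooth muscle actin, read 577, 548 and 546 CPM in dCD, 221, 218 and 211 CPM in MLL2dTAG and 41.4 ± 0.653 CPM in WT, so that both edited lines were over WT. Tcf21 (3.89) and Prrx1 (2.45), transcription factors of mesenchyme, were higher in dCD, and Pdgfra (-1.26) was higher in MLL2dTAG. Of 6 tested blood and endothelium markers, 5 were called higher in MLL2dTAG and 1, Gata2 (0.39), in dCD. Their summed level was 200 to 215 CPM in dCD and 344 to 351 CPM in MLL2dTAG, both under the 449 to 475 CPM of WT. Kdr, the VEGF receptor, was at 207 ± 4.23 CPM in MLL2dTAG and 45.1 ± 1.66 CPM in dCD, while the globin genes Hba-x and Hbb-bh1 had at most 0.0172 CPM in either line. Neural crest markers gave 2 called higher in dCD and 3 in MLL2dTAG of 9, trophectoderm markers 3 and 2 of 8, and glia markers 3 and 1 of 5. Their summed levels were 174 to 179 and 164 to 167 CPM for neural crest, 92.0 to 100.2 and 77.0 to 80.4 CPM for trophectoderm, and 217 to 224 and 282 to 286 CPM for glia, in dCD and MLL2dTAG in turn. WT stood at 116 to 119, 89.0 to 95.5 and 371 to 384 CPM in the same order of lists. The part of these cell types in the differences above was not tested.

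Chromatin regulators differed little in most cases. Of 26 Polycomb genes, 17 (65.4%) were called higher in MLL2dTAG and 2 (7.69%) in dCD, beside 30.8% and 31.2% of all genes. The median was -0.26, and Epop (-0.99), Ezh1 (-0.73) and Jarid2 (-0.72) were the largest of the 17. Phf19, a Polycomb accessory protein, had a far larger difference, toward dCD. It read 6.11, 6.23 and 7.05 CPM in dCD, 0.619, 0.566 and 0.722 CPM in MLL2dTAG and 6.25 ± 0.316 CPM in WT (log2 3.34, SE 0.175, edgeR adjusted p = 1.88e-15). The list of 8 H3K4 demethylase genes also holds the corepressor genes Rcor1 and Rcor2, which are not demethylases. Of these 8 genes, 2 were called higher in dCD and 5 in MLL2dTAG (median -0.12), with Rcor2 (0.80) the largest. DNA methylation genes gave 3 on each side of 9, and their median of 0.08 turned to -0.11 with offsets for GC content and length. Dnmt1, the maintenance methyltransferase, was at 361 ± 8.09 CPM in dCD and 205 ± 3.27 CPM in MLL2dTAG, while Dnmt3b (14.9 ± 0.487 and 26.3 ± 2.32 CPM) and its cofactor Dnmt3l (0.699 ± 0.185 and 8.8 ± 0.673 CPM) were higher in MLL2dTAG. Germline genes, many of which are held silent by promoter methylation in somatic cells, gave 13 called higher in dCD and 3 in MLL2dTAG of 19, with a median of 1.25. Meioc, a meiosis gene, read 51.6, 53.5 and 51.5 CPM in dCD, 3.92, 4.75 and 4.80 CPM in MLL2dTAG and 17.0 ± 0.295 CPM in WT. Ddx4, the germ cell helicase Vasa, was at 25.6 ± 0.474 and 2.96 ± 0.22 CPM, and Dazl, a germ cell RNA-binding protein, at 6.24 ± 0.331 and 15.4 ± 1.32 CPM. Other lists gave 7 called higher in dCD and 8 in MLL2dTAG of 16 for interferon and antigen presentation, 5 and 2 of 8 for growth timing genes, 2 and 4 of 9 for the exon junction complex, and 10 and 1 of 14 for tubulins. Their medians were -0.26, 0.16, -0.06 and 0.25; the first turned to 0.053 with all 18 libraries in the fit and the second to -0.0069 with offsets for GC content and length. H2-K1, a class I antigen-presenting molecule (36.2 ± 1.19 and 9.7 ± 0.774 CPM), and Lin28b, a repressor of let-7 processing (29.6 ± 1.74 and 5.64 ± 0.474 CPM), were higher in dCD, and the interferon-induced gene Bst2 was higher in MLL2dTAG (8.86 ± 0.551 and 22.1 ± 1.09 CPM).

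The same lines were also compared as embryonic stem cells (ESC), with 3 libraries each and no library shared with NPC, which asks whether a difference was also found at that stage. The ESC labels name dTAG-13 as well, but its dose and duration in ESC are not given in the sources used here, and ESC had no retinoic acid. Stage, retinoic acid and exposure to the compound therefore cannot be told apart in what differs between ESC and NPC. In ESC, 9855 of 17536 genes were called (56.2%), 4985 higher in dCD and 4870 higher in MLL2dTAG. Of 16071 genes tested at both stages, 10162 were called in NPC, 9263 in ESC and 6550 at both. The shared genes were 64.5% of those called in NPC and 70.7% of those called in ESC. Over all genes tested, 56.2% were called in ESC and 62% in NPC, so much of this overlap would arise from these shares alone. The shared genes had the same direction in 4434 cases and the opposite one in 2116. At 2-fold or more 2546 genes were called in NPC, 1550 in ESC and 808 at both. These 808 were 31.7% of the NPC genes and 52.1% of the ESC genes, with 715 in the same direction and 93 in the opposite one. An interaction test of the NPC difference minus the ESC difference called 9649 of 19856 genes (48.6%), 4023 more positive and 5626 more negative in NPC. With library totals alone in place of the scaling factors the split was 4949 and 4491. With no filter on low counts it was 4925 and 4218. Pou5f1 differed by 0.026 in ESC and -4.34 in NPC (interaction -4.41, edgeR adjusted p = 1.22e-33), Grb10 by -0.56 and -4.71 (interaction -4.19, edgeR adjusted p = 2.35e-36), and Ptgs2 by -0.10 and 5.01 (interaction 5.07, edgeR adjusted p = 1.74e-32). Col1a2 (-0.09 in ESC, 3.12 in NPC) and Perp (0.14 and 2.29) had interactions of 3.17 and 2.10 as well. In Pou5f1, Ptgs2, Col1a2 and Perp the lines were close in ESC and apart in NPC. Grb10 was lower in dCD at both stages, by far more in NPC. Magohb (5.12 in ESC) and Pja1 (3.35) already differed in ESC and more so in NPC, with interactions of 3.21 and 2.01. Other differences stood at both stages with no interaction called. Fgf13 differed by 2.77 in ESC and 2.79 in NPC, with an interaction of -0.027 (SE 0.2, edgeR adjusted p = 0.939). Klf4 differed by -1.03 in ESC and -1.03 in NPC, with an interaction of -0.04 (SE 0.059, edgeR adjusted p = 0.611). Jarid2 differed by -0.74 in ESC and -0.72 in NPC, with an interaction of -0.033 (SE 0.036, edgeR adjusted p = 0.489).

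**Figure D5:**
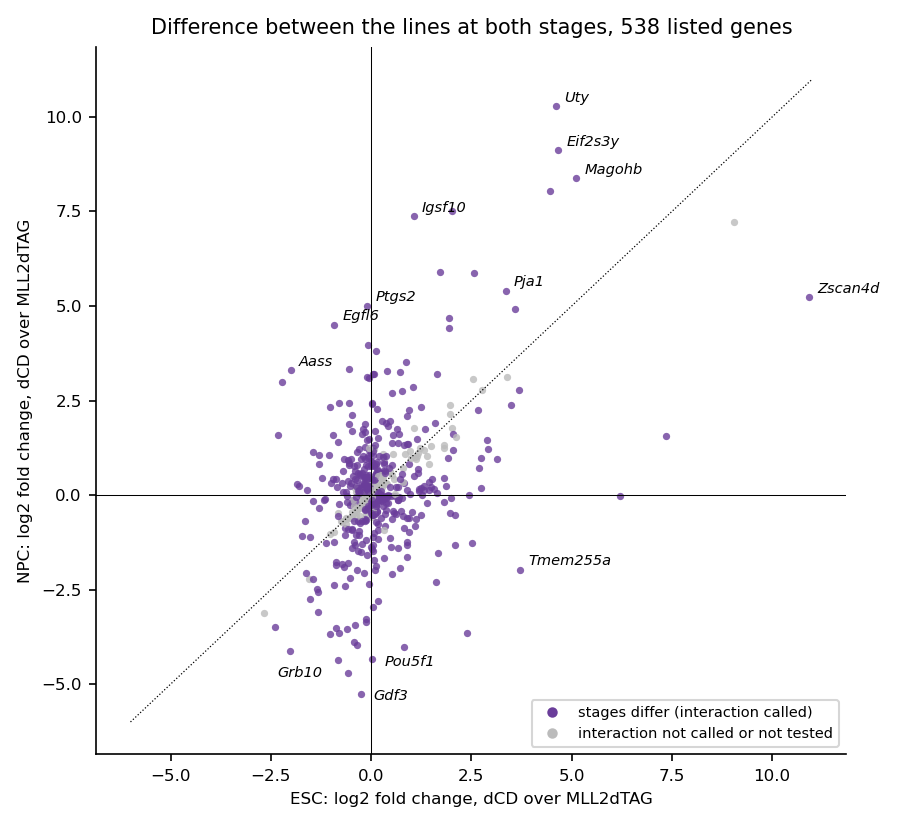
Each point is 1 of 538 listed genes tested at both stages, with the log2 fold change of dCD over MLL2dTAG in ESC on the x axis and in NPC on the y axis; purple marks genes whose difference differed between the stages and the dotted line marks equality. Pou5f1 and Ptgs2 lie near 0 on the x axis and far from 0 on the y axis. Grb10 lies below 0 on both axes, farther on the y axis, and Magohb and Pja1 lie high on both.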

How the data were processed

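mRNA was sequenced from 3 libraries each of dCD and MLL2dTAG NPC, with 3 WT NPC libraries for levels and 6 ESC libraries of the edited lines for the stage comparison. What the authors deposited are raw counts of reads for each gene symbol, not normalized. The TruSeq Stranded mRNA kit was used, per the labels' protocols, and reads were counted with HTSeq, per the submitters' processing notes; the aligner, genome build, annotation and strand setting are not given in the sources used here, so overlapping and antisense genes may share counts. A further 6 columns of the table carry 3 names used more than once and were not used, nor were 12 columns of another table whose names match no label.

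Counts were fitted in R 4.3.3 with edgeR 4.0.16 (filterByExpr by group, TMM factors of 0.987 to 1.01, quasi-likelihood F test, two-sided, Benjamini-Hochberg adjustment over all genes tested, 4 residual degrees of freedom, biological coefficient of variation 3.55%). The interaction was fitted on 12 libraries with 8 residual degrees of freedom. SEs come from the log2 fold change and the F statistic. CPM use the TMM factors and are given as mean ± SD of 3 libraries; intervals and floors cover counting error only. Replicates differed by more than the sampling noise of single, independent counts in all 6 pairs (chi-square over degrees of freedom, 2.28 to 4.43). Low counts were even in 61.4% to 64.6% of cases, against 49.5% to 50.4% of high counts, and halved counts were run as an alternative. If reads were counted in pairs, sampling noise would be larger. Neither the chi-square nor the floor of 3 counts allows for that. Chromosomes were taken from GENCODE vM21 and RefSeq by symbol. The fits were run on simulated data with 200 changed genes and all others unchanged. In the data 62% of genes were called, so the simulation does not test the scaling.

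Genes were named by a rule: the targeted genes, the 12 highest and 12 lowest called genes whose lines did not overlap and whose average was 10 CPM or above, up to 4 called members of each of 32 lists with the largest difference together with members that define the list, and the 5 most positive and 5 most negative interactions. The comparison and the lists were chosen with earlier results of these data known, so counts over a list are a description. Alternatives were other scalings, DESeq2 1.42.0, other filters, halved counts, GC content and length offsets, a block by replicate number, all 18 libraries in 1 fit, and leaving out each library. The result of 1 list member is not reported here.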

Additional observations from a re-analysis of the deposited data

Results flagged for a closer look

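The difference between the lines itself differed between NPC and ESC, by the edgeR interaction test, in 10 genes taken as the most extreme with a mean of at least 10 CPM over the 12 libraries. Values are the log2 difference of dCD over MLL2dTAG in NPC minus that in ESC. Igsf10 had 6.28 (SE 0.175), with 39 counts in MLL2dTAG NPC against 5561 in dCD NPC, and 877 against 1370 in ESC. Uty had 5.61, with 4 and 4622 counts in NPC and 155 and 2845 in ESC, so the Y-linked signal that was nearly absent from MLL2dTAG NPC was low in MLL2dTAG ESC as well, at 1.57 ± 0.129 CPM against 38.3 ± 1.48 CPM in dCD. Egfl6 had 5.41, from 4.51 in NPC and -0.93 in ESC. Aass, a lysine-degrading enzyme, had 5.26, from 3.30 in NPC and a difference of the other sign in ESC, where it was at 112 ± 3.26 CPM in MLL2dTAG and 27.6 ± 3.6 CPM in dCD. Egfl6 and Aass thus changed sign between the stages, as did Tmem255a below. Each of the first 2 was low at 1 stage. Aass was at 2.61 ± 0.387 CPM in dCD NPC and 0.273 ± 0.0783 CPM in MLL2dTAG NPC. Egfl6 was at 1.62 ± 0.437 CPM in dCD ESC and 3.065 ± 0.407 CPM in MLL2dTAG ESC.

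Sst, the somatostatin gene, had 6.61 and was at 42.2 ± 4.7 CPM in dCD NPC and 7.31 ± 0.758 CPM in MLL2dTAG NPC, with 0 and 6 counts in ESC. Dcx, a microtubule protein of migrating neurons, had -5.95, with 76.9 ± 2.59 and 66.4 ± 2.99 CPM in NPC and 20 and 0 counts in ESC. For both, the fitted value rests on an ESC group at 0 counts, depends on the prior count of the fit and is no bound.

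Zscan4d, a gene of the 2-cell-like state, had -5.78, with 138 and 4 counts in dCD and MLL2dTAG NPC and 3530 and 2 in ESC; without MLL2dTAG NPC replicate 2 it was -2.52 and not called (edgeR adjusted p = 0.865). Tmem255a had -5.74, from -1.97 in NPC (59.6 ± 0.875 and 243 ± 6.28 CPM) and 3.72 in ESC, where it had 73 and 7 counts. Gdf3, a TGF-beta family ligand of pluripotent cells, had -5.03, with 4 and 196 counts in NPC and 63.9 ± 2.46 and 76.6 ± 0.765 CPM in ESC. Gpr50, an orphan receptor, had -4.99, with 548 and 4704 counts in NPC and 17 and 5 in ESC.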

How the results depend on the processing

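Over all settings run, the number of genes called in NPC ranged from 10569 with DESeq2 to 12702 with GC content and length offsets, apart from the filter at a mean of 10 CPM, which tested 10300 genes and called 7122. It called 3636 genes higher in dCD and 3486 in MLL2dTAG, and 554 and 224 at 2-fold or more; fewer genes were tested there. Under that filter autosomal medians ran from -0.093 to 0.033. Leaving out 1 library gave 10595 to 11144 genes called, 5412 to 5561 of them higher in dCD and 5135 to 5583 in MLL2dTAG. Of genes called both ways, 249 changed sign under the GC content and length offsets, where Dcx, at 0.27 otherwise, was at -0.053. In the other settings 0 did. The offsets also re-centred each library, so these changes may hold a shift in scale. The stage interaction called 6842 genes at a mean of 10 CPM or more and 9143 to 9562 in the other settings that kept all libraries. Klf5 also lost its call with upper-quartile factors (edgeR adjusted p = 0.0927), library totals (0.0717) and the filter at 10 CPM (0.127). Tuba3b was called without MLL2dTAG replicate 3 (-0.79). Trp53 was called higher in MLL2dTAG under 3 settings (-0.0886 to -0.11), Dppa2 was called higher in dCD with upper-quartile factors (0.22) and library totals (0.22), and Magoh was called with GC content and length offsets (-0.12). Numbers do not pair the replicates: correlations of same-numbered libraries were -0.023, -0.116 and -0.023, own numbers correlated best in 0 of 3, and the replicate block called 10960 genes. The promoter composition alternative was not run, since the check was void.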

Other observations

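Genes that were nearly silent in 1 line and expressed in the other were counted after their values were seen, as those under 0.2 CPM in every library of 1 line and at 2 CPM or more in every library of the other. There were 28 such genes near silence in MLL2dTAG and 6 in dCD. Of the 28, 18 were at 2 CPM or more in WT and 0 were under 0.2 CPM there, and 4 lie on the Y and 5 on the X chromosome. 2810429I04Rik had 630 counts in dCD and 0 in MLL2dTAG, at least 249-fold higher in dCD against a floor of 3 counts over the group. Tceal1 (10.9 ± 0.499 CPM in dCD, 0.103 ± 0.0154 in MLL2dTAG), Scml2, a Polycomb-related gene (8.57 ± 0.324 and 0.115 ± 0.0498 CPM), Pgbd1 (7.82 ± 0.225 and 0.0784 ± 0.031 CPM) and Hfm1, a meiotic helicase (6.35 ± 0.154 and 0.0624 ± 0.0489 CPM), were also in this group. Gatm, an enzyme of creatine synthesis, had 523 and 6 counts, and Scn9a, a sodium channel, 526 and 14.

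Of the 6 genes near silence in dCD, 0 were at 2 CPM or more in WT and 4 were under 0.2 CPM there. Dbh, which makes noradrenaline, had 0 counts in dCD and 780 in MLL2dTAG (6.65 ± 0.78 CPM), at least 219-fold higher in MLL2dTAG. Its antisense partner Dbhos, whose reads cannot be told apart from those of Dbh without the strand setting, had 0 and 517 counts. Ltf, lactotransferrin, had 2 and 460 counts, and Tcl1, a gene of stem and lymphoid cells, 6 and 354.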
